A study of Macaca mulatta with 95 samples.

Results

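The 8 genes described here, T, EOMES, MIXL1, GSC, LHX1, HESX1, CER1 and ISL1, code for transcription factors and a secreted antagonist that act at gastrulation and in the anterior endoderm. They were taken by symbol from a table of 16049 genes, and all 8 had a row. The table holds 95 single cells of rhesus macaque (Macaca mulatta) embryos, made by fertilisation in vitro and grown in culture, with each cell sequenced as its own library.

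T (brachyury, listed as TBXT by RefSeq) and EOMES are T-box transcription factors. Both are known from the primitive streak, the site at which epiblast cells leave the surface layer of the embryo to become mesoderm and endoderm. MIXL1 is a homeobox factor of the streak that responds to Nodal, and GSC (goosecoid) is a homeobox factor of the organiser at its front end. LHX1, a LIM homeobox factor, HESX1, a homeobox repressor, and CER1, a secreted protein that binds Nodal and BMP ligands, mark in the mouse the anterior visceral endoderm. That tissue comes from the hypoblast (the extra-embryonic endoderm of the blastocyst) and restricts where the streak forms. ISL1 is a LIM homeobox factor known from heart progenitors and from the amnion of primates.

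The hatched blastocyst (day 7) gave 18 inner cells, 9 with the title letter G and 9 with H, and the late blastocyst (day 6) 19 inner cells, 15 of G and 4 of H. The middle blastocyst (day 5.5) gave 5 outer cells (B) and 12 inner cells, 4 each of B, G and H. The early blastocyst (day 5) gave 6 outer cells (A) and 10 inner cells, 5 of A, 3 of G and 2 of H. The late morula (day 4.5, letter D) and the early morula (day 4, letter H) gave 5 outer and 5 inner cells each, and the 16-cell stage (day 3, letter B) gave 3 outer and 2 inner cells. Outer cells were those that took up a membrane dye before the embryo was taken apart. The labels name neither embryo nor animal and do not explain the letter, and for 9 late blastocyst cells the source name gives the hatched stage (H-03, H-09, H-14, H-15, G-03, G-04, G-16, G-22 and G-27). Cells are therefore not replicates, each group counts as 1 sample, and no test was made. An SD gives the spread between cells, and no difference has a replicate check. Recovered reads numbered 1.36 to 13.1 megareads in a cell (median 7.49), and 2358 to 7379 genes per cell reached 1 RPKM (reads per kilobase of gene and megareads). Among markers of cells that an embryo sample could carry along, those of sperm were at 0 in all 95 cells, and of 5 fibroblast and 5 cumulus markers COL1A1, COL1A2 and HSD17B1 passed 5 RPKM in some cell. Of 3 blood markers ALAS2 did so before the blastocyst (up to 26.2 RPKM), and all 3 were at 0 in the blastocyst clusters.

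The factors were silent in most cells and abundant in a few. Of the 760 values (8 genes in 95 cells), 591 were 0, and 45 cells had none of the genes at 1 RPKM or more, 34 had 1 gene, 11 had 2, 3 had 3 and 2 had 4. Reads could be recovered from the values of all 8 genes as whole numbers. Values above 0 fell into a low and a high class, with 95 that rest on 1 to 12 reads, 4 on 13 to 46 reads and 70 on 47 or more, of which 32 had 1000 or more. A single read was worth a median of 0.0246 RPKM for T, 0.0223 for EOMES and 0.0876 for MIXL1. The low class was most frequent for GSC, with 36 cells. A cell is called positive here at 1 RPKM. All 70 values on 47 or more reads passed this limit, as did 3 on fewer, 1 of CER1 and 2 of GSC. LHX1 overlaps AATF, another gene of the table, in the RefSeq annotation, and the sources used here do not state whether strand was counted, so reads of the overlap may not be told apart.

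**Figure D1:**
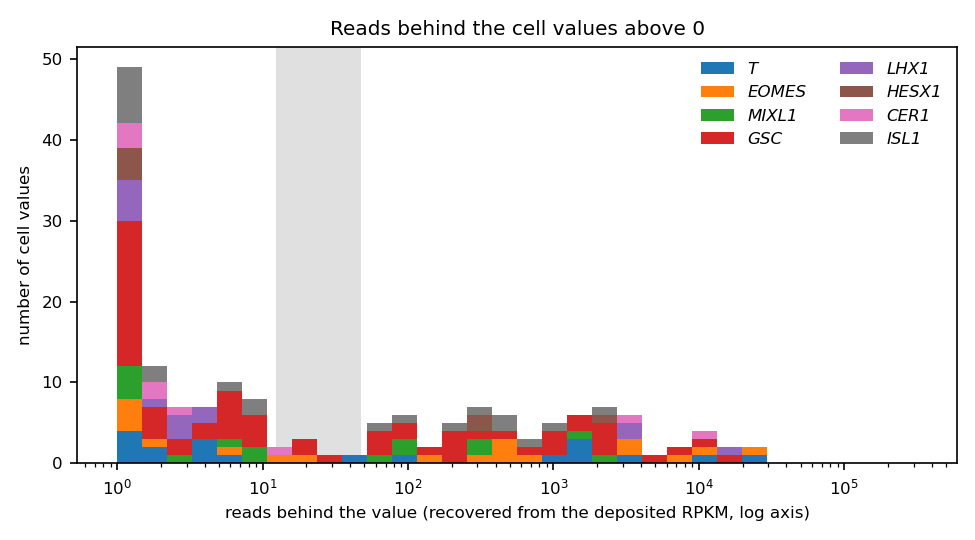
Number of cell values (y axis) by the reads recovered behind each (x axis, log scale), stacked by gene, for the 169 values above 0. Between the 95 values of 1 to 12 reads and the 70 of 47 or more, the shaded range holds 4.

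GSC was most frequent in the middle blastocyst, the highest values of T, EOMES, LHX1 and CER1 were those of late blastocyst cells, and MIXL1 was positive in 3 hatched and 3 late cells. Positive cells of GSC numbered 1 of 5 at the 16-cell stage, 1 of 10 in the early morula, 1 of 10 in the late morula, 7 of 16 in the early blastocyst, 12 of 17 in the middle blastocyst, 6 of 19 in the late and 0 of 18 in the hatched blastocyst. The exact binomial (Clopper-Pearson) interval at the 95% level was 44.0 to 89.7% in the middle and 0 to 18.5% in the hatched blastocyst. Such intervals hold counting error alone, as cells may share an embryo. The late blastocyst interval, 12.6 to 56.6%, overlapped both. Among the 6 positive late cells are all 4 of letter H, whose source name gives the hatched stage. The count of 0 of 18 therefore follows the stage in the title.

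T followed another course. No cell before the late blastocyst reached 1 RPKM, with 0 of 25 cells up to the late morula and 0 of 33 in the early and middle blastocyst. In the late blastocyst 8 of 19 cells did (20.3 to 66.5%), from 1.64 RPKM in G-16 to 791 RPKM in G-23, with a median over all 19 of 0.0944. The others were G-20 at 2.27, G-18 at 22.6, G-02 at 30.2, G-09 at 51.5, G-12 at 68.0 and G-06 at 291 RPKM, so every T-positive late cell bears the letter G. In the hatched blastocyst H-01 had 47.3 RPKM, and the other 17 cells had 0.0376 RPKM or less.

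EOMES was positive in 9 of 19 late blastocyst cells (24.4 to 71.1%), in 0 of 18 hatched and in 0 of 33 early and middle blastocyst cells. Its late values were highest in G-11 at 498, G-17 at 190.2 and G-23 at 170.2 RPKM, followed by G-12 at 75.3 and G-06 at 75.2 RPKM. All 4 late cells of letter H had it at a lower level, at 11.4, 2.93, 12.1 and 9.35 RPKM. The source name of these 4 cells gives the hatched stage, so the count of 0 of 18 hatched cells follows the title. Before the blastocyst EOMES was positive in 2 outer early morula cells, H-03 (7.23 RPKM) and H-06 (10.4 RPKM).

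MIXL1 was positive in 3 late cells, at 139 RPKM in G-11, 26.8 in G-18 and 22.9 in G-06, and in 3 hatched cells, at 133 RPKM in G-14, 9.02 in G-15 and 8.54 in H-05. Its 1 other positive cell was the outer early morula cell H-02 at 6.37 RPKM. LHX1 had 3 positive cells in all, late G-11 at 294, late G-17 at 46.3 and hatched G-14 at 41.9 RPKM, each on 2971 reads or more. CER1 was high in 2 cells, late G-17 at 512 and late G-12 at 188 RPKM, and its only other positive cell, inner late morula D-04, had 1.02 RPKM on 12 reads. HESX1 was positive in hatched G-14 (92.5 RPKM), in hatched H-14 (12.1 RPKM) and in the inner early morula cell H-04 (12.7 RPKM), and was at 0 in all 19 late blastocyst cells.

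ISL1 had no such stage. Its 9 positive cells were spread over 6 stages, with the outer middle blastocyst cell B-01 highest at 59.8 RPKM, then inner early blastocyst A-07 at 23.1 RPKM and late blastocyst G-22 at 20.3 RPKM. Next came the outer late morula cell D-03 at 17.3 RPKM, outer early morula H-02 at 9.67 RPKM, hatched H-15 at 8.70 RPKM, outer early morula H-04 at 5.56 RPKM, outer late morula D-05 at 5.27 RPKM and outer middle blastocyst B-03 at 2.85 RPKM. In 6 of the 9 the cell was an outer one, but the late and hatched blastocyst gave no outer cells to compare. From the 16-cell stage to the middle blastocyst, by stage, 0 of 3, 2 of 5, 2 of 5, 0 of 6 and 2 of 5 outer cells were positive. Among inner cells of the same stages 0 of 2, 0 of 5, 0 of 5, 1 of 10 and 0 of 12 were.

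**Figure D2:**
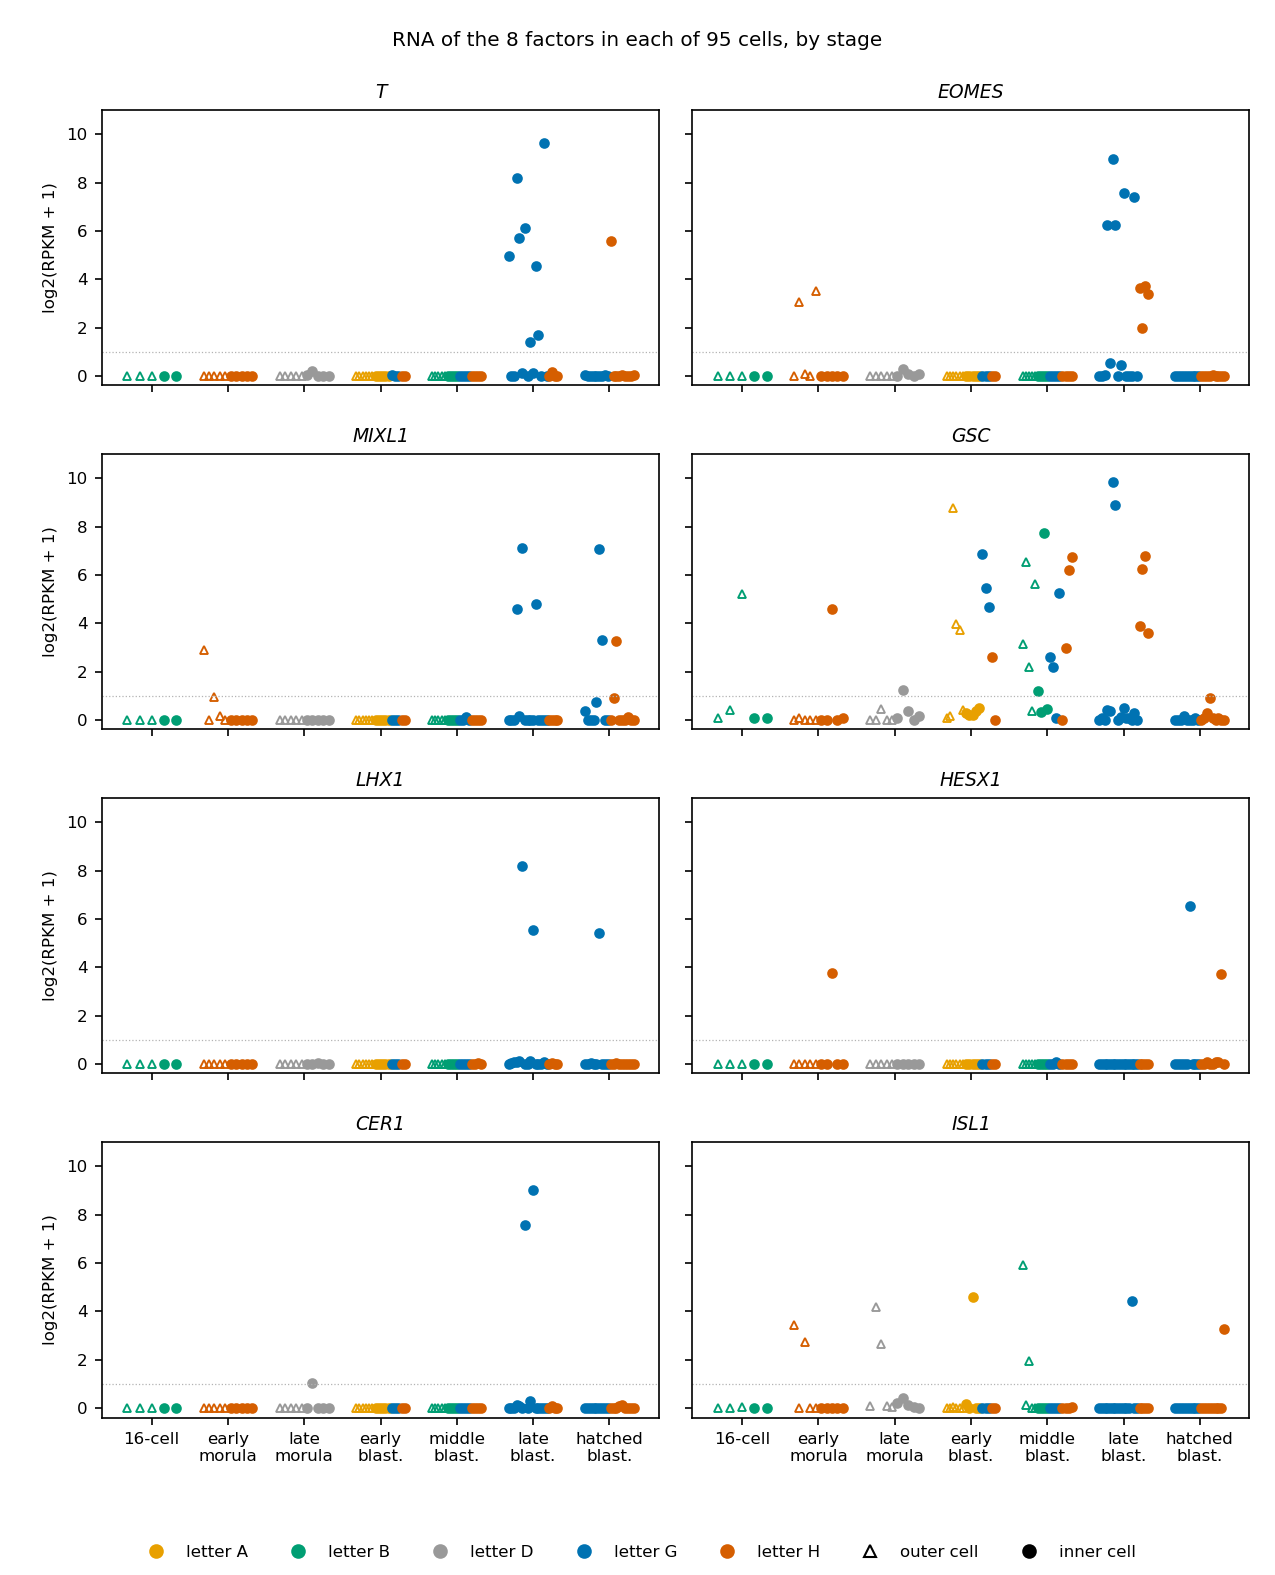
Level of each factor as log2(RPKM + 1) (y axis) in each of the 95 cells by stage (x axis). Open triangles are outer and filled circles inner cells, the colour gives the title letter, and the dotted line marks 1 RPKM. T and EOMES peak in late blastocyst cells of letter G, GSC spreads over the early to late blastocyst, and ISL1 appears in scattered cells.

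The first comparison pools stages, with 37 inner cells of the late and hatched blastocyst against 22 inner cells of the early and middle blastocyst. It does not show at which of the later stages a factor is higher. T averaged 35.3 RPKM (SD 137) in late and hatched cells and 0.00106 (0.00498) in early and middle cells. EOMES averaged 28.3 (90.6) in late and hatched cells and was at 0 in every early and middle cell, so that it was at least 339.5-fold higher when each early and middle cell is given a floor of 3 reads. CER1 averaged 18.9 (88.9) against 0 and was at least 99.7-fold higher on the same floor. MIXL1 averaged 9.21 (31.2) against 0.00381 (0.0179) and LHX1 10.3 (49.0) against 0.000724 (0.00340).

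A gene counted as measured where either mean reached 5 RPKM, and as higher or lower at 2-fold after adding 1 RPKM to both means. On this rule 5 of the 6 measured factors were higher in late and hatched cells and 0 lower, where 25.8% of all measured genes passed 2-fold upward and 16.6% downward. The log2 ratios were 5.18 for T, 4.87 for EOMES, 4.32 for CER1, 3.50 for LHX1 and 3.35 for MIXL1, against a median of 0.27 for all measured genes. Single cells carry much of these sizes. Without late G-11 LHX1 averaged 2.46 RPKM in late and hatched cells, under the limit for a measured gene, so its call was lost, and the log2 ratio of EOMES was 4.02 and that of MIXL1 2.72. Without late G-17 the ratio of CER1 was 2.64, and without late G-23 that of T was 3.94. Among called genes, members or not, the higher ones made up 60.8%, and 45.4% after median-of-ratios scaling, while the 5 factors kept their direction. GSC stayed below 2-fold, at 43.8 (170.2) against 29.0 (54.2) RPKM and a log2 ratio of 0.58, which is -0.57 without the late cell G-11. HESX1 and ISL1 did not reach 5 RPKM on either side. In no case did the groups of cells stand apart, since most late and hatched cells were below 1 RPKM for each factor.

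Depth and letters differed between the sides, with medians of 8.21 megareads and 5353 genes at 1 RPKM in late and hatched cells, against 7.00 megareads and 4343.5 genes in early and middle cells. The later side holds letters G and H only, the earlier side A, B, G and H. Within letter G alone the same 5 factors were higher and 0 lower, where 22.6% of all measured genes passed 2-fold upward and 18.1% downward. Within letter H alone 7 of the 8 factors were below 5 RPKM on both sides and GSC was under 2-fold, with a background of 32.3% upward and 17.1% downward. EOMES was positive there in 4 of 13 late and hatched cells and in 0 of 6 early and middle cells, and T in 1 of 13 and 0 of 6. The fibroblast marker COL1A2 averaged 59.3 RPKM (SD 92.2) in late and hatched cells and 10.4 (30.1) in early and middle cells. The part of depth, letters and COL1A2 in the result was not tested. Among 22 streak and mesoderm genes that took no part in the clustering below, 10 were measured, 3 higher (FGF17, HAND1 and CDX1) and 3 lower (MESP2, WNT3 and FGF8), with a median of 0.06. Of 11 anterior and definitive endoderm genes 9 were measured, 8 higher and 0 lower, with a median of 3.20.

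To place the factors in lineages, the 70 blastocyst cells were clustered without the 8 genes and without list genes other than lineage markers, and clusters were named from lineage markers. In 4 cells all 13 measured hypoblast markers were higher than in the other cells, and these are called hypoblast-like: late G-11, G-12 and G-17 and hatched G-14. Of the 17 hypoblast markers with a row, PDGFRA and APOA2 were at 0 in all 4 of these cells and not among the 13. PDGFRA passed 5 RPKM in at least 1 blastocyst cell outside them. The 16 epiblast-like cells (5 of 10 markers higher) comprise all 9 hatched cells of letter H and 7 late cells of letter G. The 13 trophectoderm-like cells form 2 clusters (10 and 11 of 16 markers higher), with 8 hatched and 5 late cells, all of letter G. The remaining cells keep a number, with 11 early cells of letter A and 9 middle cells of letter B in cluster 1, and 5 early, 8 middle and 4 late blastocyst cells of letters G and H in cluster 2.

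The 4 hypoblast-like cells carried 3 or 4 of the factors each, every one a different set, and outside them only late G-06, an epiblast-like cell, had 3. Late G-11 had GSC at 929, EOMES at 498, LHX1 at 294 and MIXL1 at 139 RPKM, while CER1 was at 0 and T at 0.0944 RPKM. Late G-12 had GSC at 482, CER1 at 188, EOMES at 75.3 and T at 68.0 RPKM, while LHX1 and MIXL1 were at 0. Late G-17 had CER1 at 512, EOMES at 190.2 and LHX1 at 46.3 RPKM, with GSC at 0.419 RPKM. Hatched G-14 lacked EOMES, GSC, CER1 and T, all at 0, and had MIXL1 at 133, HESX1 at 92.5 and LHX1 at 41.9 RPKM. ISL1 was at 0 in all 4.

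**Figure D3:**
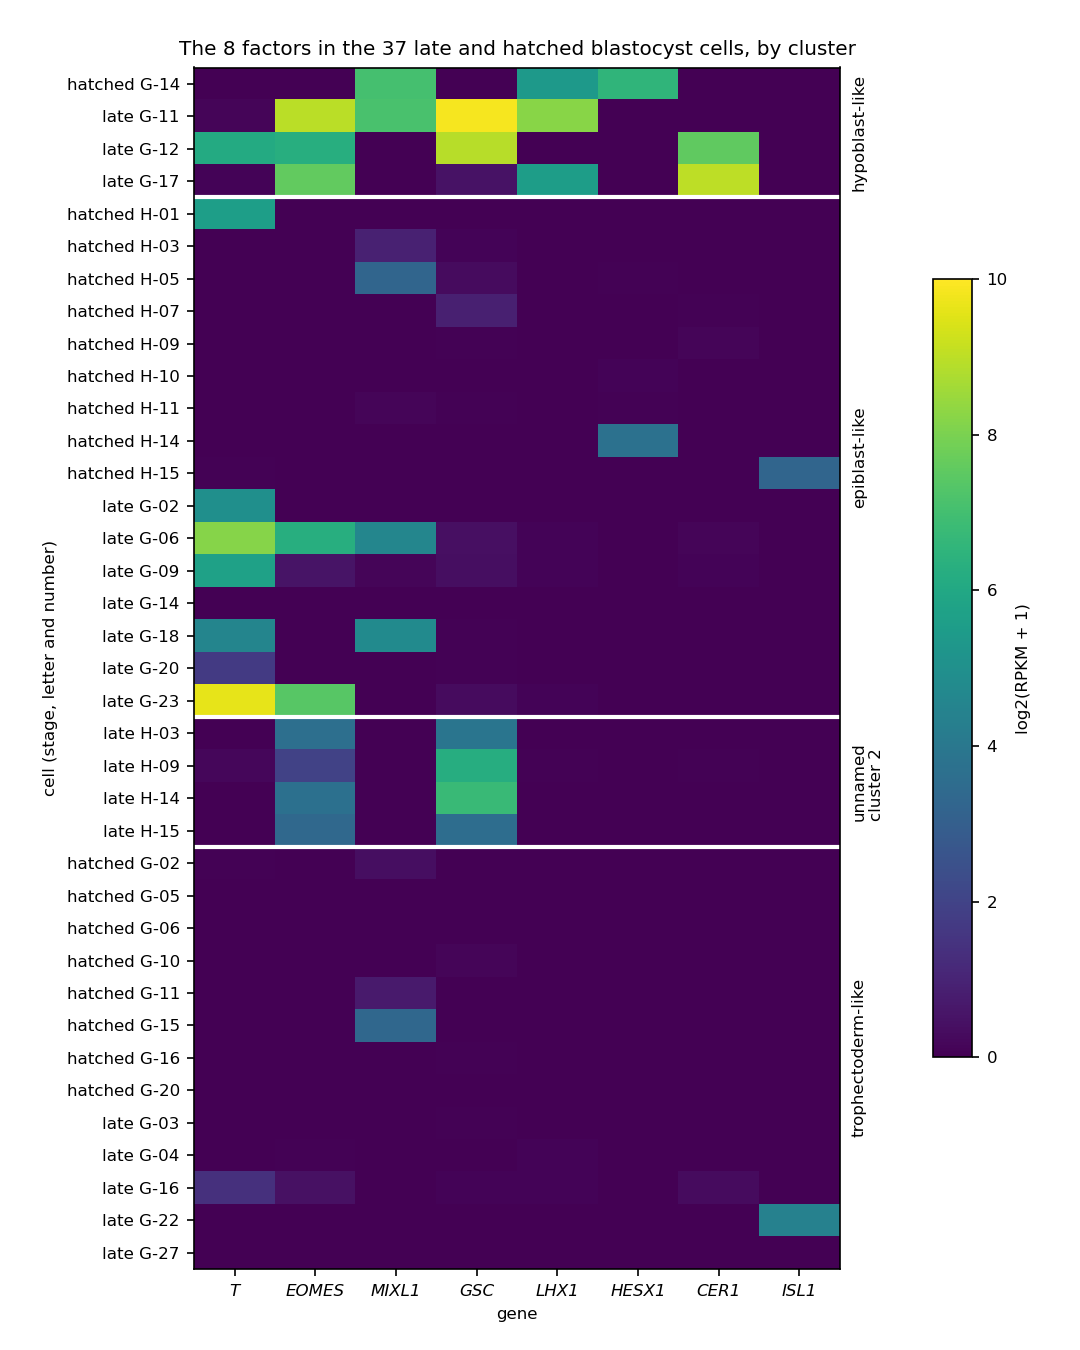
Level of the 8 factors (x axis) in each of the 37 late and hatched blastocyst cells (y axis), grouped by cluster, as log2(RPKM + 1) on the colour scale. The hypoblast-like cells at the top carry 3 or 4 factors each, T is present in 6 of the 7 late epiblast-like cells, EOMES with GSC in all 4 late cells of letter H and in hypoblast-like G-11 and G-12, and 10 of the 13 trophectoderm-like cells have none at 1 RPKM.

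Set against the 16 epiblast-like cells, 6 of the 7 measured factors were higher and 1 was lower in the 4 hypoblast-like cells, where 26.1% of all measured genes were higher and 35.3% lower. GSC averaged 353 RPKM (SD 446) in hypoblast-like and 0.138 (0.224) in epiblast-like cells, a log2 ratio of 8.28. CER1 averaged 175 (242) against 0.0186 (0.0356), a log2 ratio of 7.43, and LHX1 95.6 (134) against 0.0144 (0.0286), a log2 ratio of 6.57. No epiblast-like cell was positive for these 3 genes, which leaves a share of up to 20.6%. MIXL1 averaged 67.9 (78.4) against 3.71 (8.55), a log2 ratio of 3.87, and EOMES 191 (219) against 15.4 (45.4), a log2 ratio of 3.55. HESX1, at 23.1 (46.3) against 0.770 (3.03), had a log2 ratio of 3.77, but without hatched G-14 the sign turns, at -0.82. T was lower, at 17.0 (34.0) against 77.3 (203.6), with a log2 ratio of -2.12. Without late G-23 this ratio was -0.77, short of 2-fold, and without hypoblast-like G-12 it was -6.21. Without hypoblast-like G-11 the ratios were 7.15 for GSC, 4.91 for LHX1, 3.27 for MIXL1 and 2.45 for EOMES, and without G-17 that of CER1 was 5.96. Without late G-23 the ratio of EOMES was 4.99.

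The median of all measured genes was -0.21, and median-of-ratios scaling moved it by 0.55 and the share of higher genes among those called to 57.0%, against 42.6% as deposited, with no factor changing sign. The hypoblast-like cells were deeper (median 9.77 megareads) but had fewer genes at 1 RPKM (3997) than epiblast-like cells (7.02 megareads and 5255 genes), and all bear the letter G. The summed level of 5 fibroblast markers ran from 0.0238 to 213 RPKM in hypoblast-like and from 0.256 to 417 RPKM in epiblast-like cells, with COL3A1 and LUM at 0 in both, and its part and that of depth were not tested. Both sides can be matched on stage and letter in late cells of letter G, with 3 hypoblast-like and 7 epiblast-like ones. There GSC (8.70), CER1 (7.84), LHX1 (6.80), EOMES (2.82) and MIXL1 (2.54) were again higher and T (-2.85) lower, with HESX1 at 0 on both sides. The background in these cells was 30.7% higher and 34.9% lower.

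Other genes of the anterior and definitive endoderm, from a list chosen with earlier results of these data known, accompanied the factors in these cells. Of 11 that took no part in the clustering 9 were measured and all 9 were higher in hypoblast-like cells, with a median log2 ratio of 5.35. Of all measured genes 26.1% were higher. This count without lineage markers was added after seeing the data. Without hatched G-14 they were 8 higher and 1 lower. Among them, DKK1, a secreted WNT antagonist, averaged 1074 RPKM (SD 1917) against 7.49 (20.4), but the value comes from G-11 (3939 RPKM) and G-12 (356 RPKM), with G-17 at 0.223 and hatched G-14 at 0.0266 RPKM. FOXA1, a forkhead factor of the endoderm, was more even, at 153, 109, 21.3 and 6.04 RPKM in G-11, G-12, G-17 and hatched G-14, against a highest epiblast-like value of 0.167 RPKM.

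The 2 secreted Nodal antagonists on the list were above 10 RPKM in every hypoblast-like cell but varied widely. LEFTY2 stood at 503, 714, 1358 and 16.3 RPKM in the same order of cells, and LEFTY1 at 529.9, 12.4, 77.8 and 1387 RPKM. The lowest of these lie within the range of epiblast-like cells, which reached 198 RPKM for LEFTY2 and 285 RPKM for LEFTY1. HHEX, a homeobox factor of the anterior endoderm, was present in the 3 late cells (535, 767 and 91.9 RPKM) and at 0 in hatched G-14, as was OTX2, a homeobox factor of the anterior head (222, 289.5, 129 and 0.0218 RPKM). FGF17, from the streak list, divided the cells the same way, at 64.8, 266 and 439 RPKM in the late cells and 0 in hatched G-14. Hatched G-14 was the highest of the 4 for FRZB (414 RPKM), a secreted WNT antagonist, BMP2 (439 RPKM), a ligand, and FST (322 RPKM), which binds activin. FST was at 0 in the 3 late cells, while G-17 also had FRZB at 21.8 and BMP2 at 19.9 RPKM.

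SOX17, GATA4, FOXA2 and HNF4A, which are on the same list, served as hypoblast markers and are no separate result. Of 8 measured Nodal pathway genes outside the markers 5 were higher, among them ACVR1B, FOXH1, LEFTY1 and LEFTY2, and 3 lower (SMAD2, SMAD4 and SMAD7), with a median of 1.89. Of 8 measured streak genes outside the markers 4 were higher, led by FGF17 (7.56) and CDH2 (6.48), and 2 lower, CDX1 (-4.88) and WNT3A. In the late cells of letter G alone that count was 3 higher and 6 lower of 10 (4 higher and 4 lower of 8 without late G-23), the lower ones being MESP1, SNAI1, WNT3, WNT3A, CDX1 and AXIN2.

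**Figure D4:**
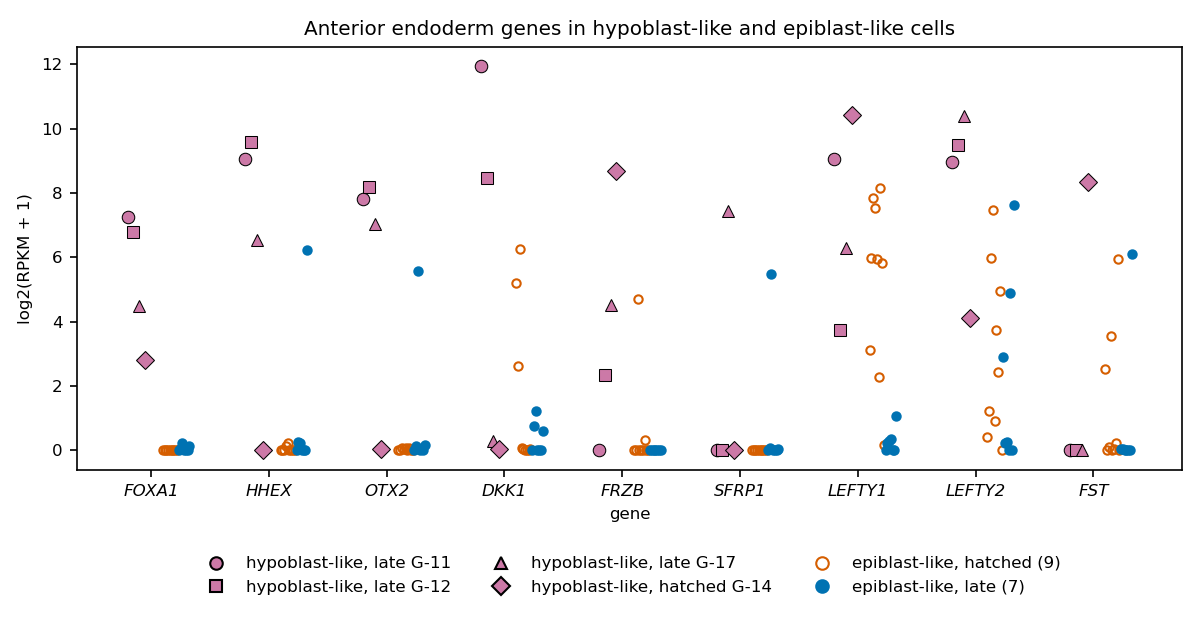
Level of 9 anterior and definitive endoderm genes (x axis), none of them used in the clustering, as log2(RPKM + 1) (y axis) in 4 hypoblast-like cells (pink symbols with a shape per cell) and 16 epiblast-like cells (open, hatched; filled, late). LEFTY1, LEFTY2 and FOXA1 are present in each hypoblast-like cell, HHEX and OTX2 in the 3 late ones and FST in the hatched one.

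In the epiblast-like cells T was the factor with the highest mean and the most positive cells, most of them late cells of letter G. Of the 9 hatched epiblast-like cells 1 was positive for T (H-01, 47.3 RPKM), against 6 of the 7 late ones. T averaged 5.27 RPKM (SD 15.8) in hatched and 169.9 (292) in late epiblast-like cells, a log2 ratio of -4.77. Without late G-23 the late mean was 66.3 RPKM and the ratio -3.43, and without hatched H-01 the ratio was -7.41. EOMES averaged 0.00243 (0.00728) in hatched and 35.1 (65.8) in late cells, a log2 ratio of -5.17, and its late mean rests on G-23 and G-06, with a ratio of -3.76 without G-23. MIXL1 averaged 1.06 (2.82) in hatched and 7.11 (12.2) in late cells, a log2 ratio of -1.98, and without late G-18 the late mean was 3.83, under the limit of 5 RPKM. These 3 were the measured factors, all 3 lower in hatched cells, where 14.1% of all measured genes were lower and 31.4% higher. Higher genes made up 69.0% of those called as deposited and 46.3% after median-of-ratios scaling, and that scaling shifted the median of all measured genes, 0.34, by -0.52. The 3 factors stayed lower.

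All the hatched epiblast-like cells bear the letter H and all the late ones G, so stage and letter cannot be told apart here. Depth was 8.33 megareads (median) in hatched and 6.68 in late cells, with 5746 genes at 1 RPKM in hatched and 4102 in late cells. COL1A2 averaged 157.8 RPKM (SD 111) in hatched and 55.4 (58.8) in late epiblast-like cells. The part of depth and of COL1A2 was not tested.

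Within the late epiblast-like cells T was graded and the highest cells differed from the rest in more than T. G-23, with T at 791 and EOMES at 170.2 RPKM, also had WNT3A at 80.3, SNAI1 at 62.7, MESP1 at 40.2, WNT3 at 35.6 and TBX6 at 19.9 RPKM. WNT3 and WNT3A are ligands of the streak, SNAI1 is a repressor of epithelial genes, and MESP1 and TBX6 are factors of nascent mesoderm. The same cell had POU5F1 at 5635 RPKM but NANOG at 0.176 RPKM and SOX2 at 0, where the 6 others had NANOG at 236 to 1087 RPKM. POU5F1, NANOG and SOX2 are the core factors of pluripotent cells.

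G-06, next in T at 291 RPKM, had EOMES at 75.2, MIXL1 at 22.9, WNT3A at 72.3, SNAI1 at 41.4 and CDX1 at 217 RPKM, with NANOG at 308.5 and SOX2 at 0.0814 RPKM. The other 5 cells, with T at 51.5 RPKM or less, had SOX2 at 66.1 to 127 RPKM. Of 22 streak and mesoderm genes outside the markers, G-23 had 8 at 5 RPKM or more. G-09 had 4, G-06 had 3 and G-14, the cell with T at 0, had none. Counts of 3 and 4 were also frequent in other clusters. The median was 4 (3 to 5) in hypoblast-like, 3 (2 to 5) in trophectoderm-like and 3 (1 to 5) in cluster 2 cells. In cluster 1 it was 2 (1 to 6), and in all epiblast-like cells 2 (0 to 8). Among hatched epiblast-like cells the count ran from 0 to 6, and the highest belonged to H-01, the T-positive cell. H-01 had SNAI1 at 19.6, SP5 at 32.3, MESP2 at 10.2 and NANOG at 285 RPKM. SNAI1 was at a like or higher level in T-negative hatched H-05 (19.9), H-07 (21.1), H-09 (18.55) and H-15 (64.1 RPKM). H-01 also had AXIN2 at 102, CDX1 at 29.8 and HAND1 at 15.6 RPKM. AXIN2 and CDX1 passed 5 RPKM in T-negative hatched cells too. G-23, G-06, H-01 and the other cells named here, and TBX6, SOX2, NANOG and POU5F1 in them, were singled out after their values were seen. Each is a single cell.

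**Figure D5:**
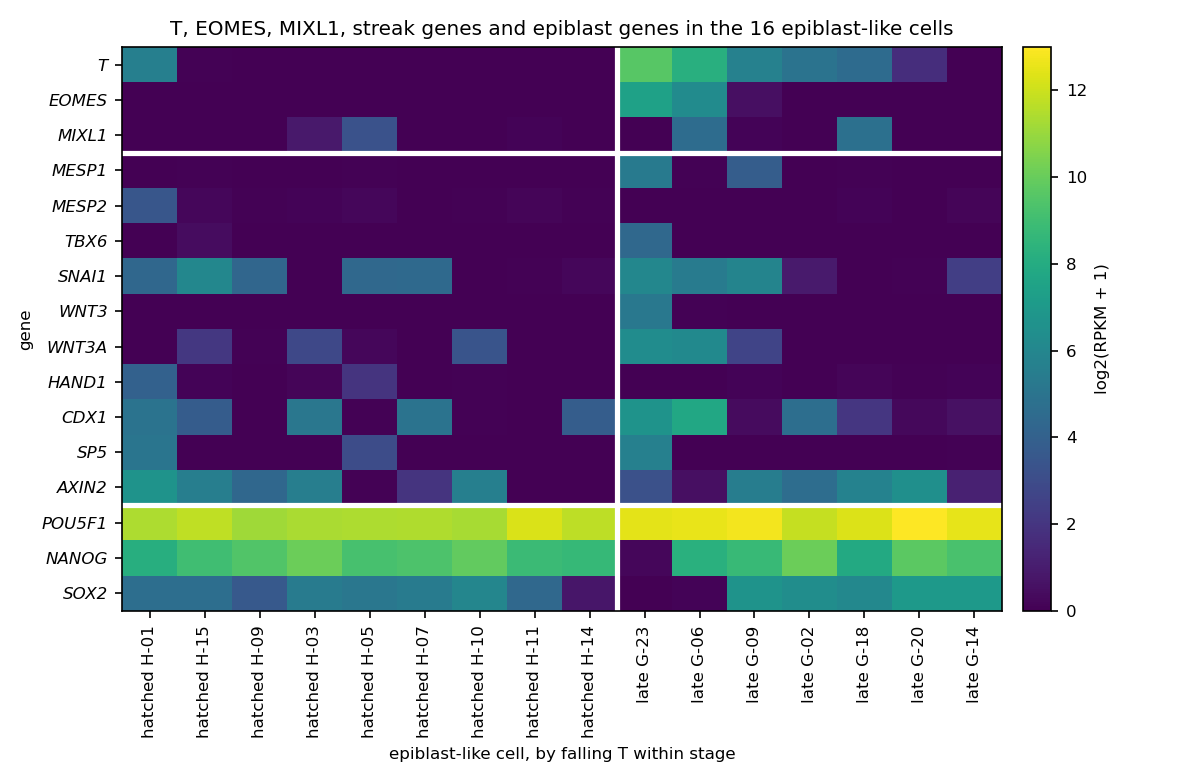
Level as log2(RPKM + 1) (colour scale) of T, EOMES and MIXL1 (top), of the 10 streak and mesoderm genes that reach 5 RPKM in any of these cells (middle) and of POU5F1, NANOG and SOX2 (bottom), in 9 hatched and 7 late epiblast-like cells (x axis) ordered by T within stage. Late G-23 holds the most streak genes and is the one cell with NANOG below 1 RPKM, and SOX2 is below 1 RPKM in late G-23 and G-06 and in hatched H-14.

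Of the 7 measured streak genes outside the markers, 0 were higher and 4 lower in hatched than in late epiblast-like cells, namely MESP1 (-3.10), WNT3A (-2.92), WNT3 (-2.61) and CDX1 (-1.81), with a median of -1.81. Without G-23 on the late side 4 were measured and 2 were lower. Of 7 measured anterior and definitive endoderm genes 2 were higher, LEFTY1 (6.31) and DKK1 (3.37), and 3 lower, HHEX, OTX2 and SFRP1. Without G-23 the count was 4 higher and 2 lower. Each lower gene rests on a single late cell, HHEX on G-23 (73.6 RPKM), and OTX2 (46.8) and SFRP1 (43.8 RPKM) on G-09. The other late epiblast-like cells were below 1 RPKM for each. LEFTY1 averaged 98.9 RPKM (SD 107) in hatched and 0.256 (0.397) in late cells.

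Trophectoderm-like cells, all inner cells of the late and hatched blastocyst, held little of any factor, and 10 of the 13 were negative for all 8. The outer cells of the early and middle blastocyst lie in unnamed cluster 1 and are not counted here. Summed trophectoderm markers had a median of 19961 RPKM in that cluster and 5803 in trophectoderm-like cells. GSC was positive in 3 of 6 early and 4 of 5 middle outer cells, and ISL1 in 0 of 6 and 2 of 5. T averaged 77.3 RPKM (SD 203.6) in epiblast-like and 0.130 (0.455) in trophectoderm-like cells, a log2 ratio of 6.11, and EOMES 15.4 (45.4) against 0.0314 (0.105), a log2 ratio of 3.99. Without late G-23 these ratios were 4.76 and 2.55. Both measured factors were thus higher in epiblast-like cells, where 20.2% of all measured genes were higher and 22.8% lower. COL1A2 moved with them, at 113 RPKM (SD 104) in epiblast-like and 0.0140 (0.0190) in trophectoderm-like cells, and its part was not tested. Positive trophectoderm-like cells were late G-22 with ISL1 at 20.3 RPKM, hatched G-15 with MIXL1 at 9.02 RPKM, and late G-16 with T at 1.64 RPKM on 47 reads. Within late cells of letter G alone, T (7.01), EOMES (5.06) and MIXL1 (3.02) were higher in the 7 epiblast-like than in the 5 trophectoderm-like cells, with a background of 31.4% higher and 30.7% lower. For these 5 trophectoderm-like cells the source name gives the hatched stage.

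The 4 late blastocyst cells of letter H, which lie in unnamed cluster 2 with earlier cells, shared a further combination. Each was positive for EOMES and GSC and for no other factor. GSC stood at 13.8, 74.7, 108 and 11.0 RPKM in H-03, H-09, H-14 and H-15, in which EOMES stood at 11.4, 2.93, 12.1 and 9.35 RPKM. In the same letter EOMES was positive in 0 of 2 early, 0 of 4 middle and 0 of 9 hatched blastocyst cells. GSC was positive in 1 of 2 early, 3 of 4 middle and 0 of 9 hatched cells of that letter. All 4 are also among the cells whose labels differ on stage.

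GSC was the one factor common in the 2 unnamed clusters, positive in 14 of 17 cells of cluster 2 (56.6 to 96.2%) and 9 of 20 of cluster 1 (23.1 to 68.5%). Its intervals overlap, and in cluster 1 all 20 cells had at least 1 read. It was positive in 0 of 16 epiblast-like cells and in 0 of 13 trophectoderm-like cells. Its highest values in these clusters were 443 RPKM in the outer early blastocyst cell A-06, 215 in the inner middle blastocyst cell B-05, 116 in the inner early blastocyst cell G-11, 108 in late H-14 and 107 in the inner middle blastocyst cell H-10.

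Position was compared within a letter. In the early blastocyst GSC averaged 78.4 RPKM (SD 179) in 6 outer cells and 0.249 (0.112) in 5 inner cells of letter A. The outer values were 443, 14.6, 12.3, 0.331, 0.101 and 0.0446 RPKM and the inner ones 0.135 to 0.413 RPKM, so the groups overlap. The log2 ratio was 5.99, and 2.37 without the outer cell A-06. GSC was the only measured factor and was higher in outer cells, where 29% of all measured genes were higher and 32.7% lower.

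In the middle blastocyst GSC averaged 30.4 (39.6) in 5 outer and 54.1 (107) in 4 inner cells of letter B, a log2 ratio of -0.81 that becomes 4.26 without the inner cell B-05. ISL1 averaged 12.6 (26.5) in outer cells and was at 0 in the inner ones, with a log2 ratio of 3.76, and 0.79 without the outer cell B-01. Of these 2 measured factors 1 was thus higher and 0 lower in outer cells, where 36.3% of all measured genes were higher and 24.7% lower. At neither stage were the other 6 factors measured.

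In the hatched blastocyst the letters divide the lineages, since all 9 cells of H are epiblast-like and the 9 of G are 8 trophectoderm-like cells and 1 hypoblast-like cell. T was higher in cells of letter H, at 5.27 (15.8) against 0.00517 (0.0105) RPKM and a log2 ratio of 2.64, on the strength of H-01, and COL1A2 averaged 157.8 (111) against 0.0179 (0.0276) RPKM, its part not tested. MIXL1 was lower, at 1.06 (2.82) against 15.9 (44.0) and -3.04, as was HESX1, at 1.37 (4.04) against 10.3 (30.8) and -2.25. Both of these rest on G-14, without which the log2 ratios were -0.13 for MIXL1 and 1.24 for HESX1. Of these 3 measured factors 1 was higher and 2 lower, where 20.9% of all measured genes were higher and 24.1% were lower.

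Pairs of factors met in few cells. EOMES and GSC were both positive in 6 cells, 54.5% of the 11 EOMES-positive and 21.4% of the 28 GSC-positive cells. T and EOMES met in 3 cells, 33.3% of the 9 T-positive and 27.3% of the EOMES-positive cells, namely late G-06, G-12 and G-23. T met GSC in 1 cell, G-12. The 3 LHX1-positive cells were all hypoblast-like, and MIXL1 was positive in 2 of them.

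Likeness of pattern was measured over the 70 blastocyst cells as the Pearson correlation of log2(RPKM + 1), for the 4 factors at 5 RPKM or more in at least 5 cells (T, EOMES, MIXL1 and GSC), among 7960 genes at 10 RPKM or more in 5 cells. The cells share letters, stages and depth, and most values are 0, so the coefficients only describe these cells. T was most like PTPLA (r = 0.72), MOGAT1 (0.68), PTPRZ1 (0.64), CHST2 (0.64) and IGFBP4 (0.62). For PTPLA the coefficient was 0.74 within letter G (31 cells), -0.09 within letter H (19 cells) and 0.87 without the hypoblast-like cells, with a Spearman's rho of 0.58.

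EOMES was most like HHEX (0.79), CRABP2 (0.77), APOBEC2 (0.62), PHLDB2 (0.62) and CYP26A1 (0.59). Without the 4 hypoblast-like cells HHEX kept 0.55 and PHLDB2 0.67, while APOBEC2 came to 0.01 and CYP26A1 to -0.05. MIXL1 was most like ITGA5 (0.65), PHLDB2 (0.61), ZNF570 (0.58), GPC3 (0.54) and UACA (0.54), which came to 0.01 to 0.40 without the hypoblast-like cells. Among the genes most like GSC were CADM1 (0.64), ZNF280A (0.60), FOSL2 (0.57) and OTX2 (0.56), which stayed at 0.48 or more without them, and for CADM1 the coefficient was 0.74 within letter G and 0.61 within letter H.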

How the data were processed

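RNA of 95 single cells had been sequenced, and the values are RPKM as deposited by the authors. The file does not name the unit; it was inferred from the values, which are whole multiples of a step per gene and cell. The submitters' processing notes name FastQC, TopHat2 2.1.0, HTSeq and DESeq2 without a role, and the build, annotation and strand setting are not given in the sources used here. Reads were recovered as whole numbers (within 0.05) for 13258 of 16049 genes, 82.6%, and served to give depth and the reads behind a value.

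The 8 genes, the lists and the comparisons were chosen with earlier results of these data known. Group means over cells were compared as log2 ratios after adding 1 RPKM, for genes whose mean reached 5 RPKM in either group, with a call at 2-fold. No test was made, since a group is 1 sample. Shares of cells have exact binomial 95% intervals.

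The 70 blastocyst cells were clustered (Ward, 10 principal components of the 1000 most variable of 7960 genes at 10 RPKM in 5 cells) without the 8 genes and without list genes that are not lineage markers. A cluster was named where at least 3 and at least 50% of a lineage's measured markers were 1 or more higher on the log2 scale than in other cells, a larger share than for other lineages. The plan had 5 clusters; 6 were used after seeing that at 5 the hypoblast-like cells shared a cluster with 5 trophectoderm-like cells. Doublets were not called.

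Named beside the 8 genes were the 5 most correlated genes of each factor and, from fixed lists, at most 5 genes past 2-fold per list and comparison by size. Genes given to show single cells or whole list calls go beyond this rule and were chosen after their values were seen. Some genes that the rule names are not reported here. List counts without lineage markers were added after seeing the data. Alternatives covered the pseudocount, filter, scaling, group value, detection limit, conflicting labels, cluster number, letters and each cell left out. The scripts (python 3.11.15, numpy 2.4.6, pandas 2.3.3, scipy 1.17.1, matplotlib 3.10.9) were tested on simulated data. No 2 cells had identical values, and the highest correlation between 2 cells was 0.910.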

Additional observations from a re-analysis of the deposited data

Results flagged for a closer look

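In 18 of 25 sets of 4 to 10 cells with a factor at 1 RPKM, a single cell stood far from the others by Dixon's criterion. Chance flags about 1 in 20 such sets where values follow a normal distribution. Here most cells of a set are at or near 0, so that any positive cell can be flagged.

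Hatched G-14, the hypoblast-like cell, stood apart for 3 factors among cells of letter G, with MIXL1 at 133, LHX1 at 41.9 and HESX1 at 92.5 RPKM. Among hatched cells of letter H a different cell stood apart for each factor, H-01 for T (47.3 RPKM), H-05 for MIXL1 (8.54 RPKM), H-14 for HESX1 (12.1 RPKM) and H-15 for ISL1 (8.70 RPKM). In the middle blastocyst these were inner B-05 (215 RPKM) and inner G-10 (37.2 RPKM) for GSC and outer B-01 for ISL1 (59.8 RPKM).

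In the early blastocyst outer A-06 (443 RPKM) and inner G-11 (116 RPKM) stood apart for GSC and inner A-07 for ISL1 (23.1 RPKM). In the late morula the inner cell D-04 had GSC at 1.36 and CER1 at 1.02 RPKM. In the early morula inner H-04 had GSC at 23.2 and HESX1 at 12.7 RPKM, and outer H-02 had MIXL1 at 6.37 RPKM.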

How the results depend on the processing

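Most results rest on few cells. Taking the median over cells left 0 factors past 2-fold in late and hatched against early and middle cells (5 as reported), 0 in hatched letter H against G (3), 0 in epiblast-like against trophectoderm-like cells (2) and 1 in hatched against late epiblast-like cells (3). By the mean of log2 values these counts were 3 for late and hatched cells, 0 for letter H against G and 1 for epiblast-like against trophectoderm-like cells, and 2 for outer against inner middle blastocyst cells (1). Within letter H alone 0 factors passed in late and hatched cells. For outer against inner early blastocyst cells the count was 2 with no filter and 2 with median-of-ratios scaling (1 as reported). With each cell left out in turn the counts ran from 4 to 6 for late and hatched cells, 1 to 4 for letter H against G, 2 to 2 for epiblast-like against trophectoderm-like, 6 to 7 for hypoblast-like against epiblast-like, 2 to 3 for hatched against late epiblast-like, 1 to 2 for outer cells of the early and 0 to 2 for outer cells of the middle blastocyst.

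Among called ratios the sign turned 3 times. HESX1 in letter H against G came to 1.24 without hatched G-14, and in hypoblast-like against epiblast-like cells to -0.82 without the same cell, the one source of its high value. Without hatched H-14 these HESX1 ratios were -3.47 and 4.58. T in hypoblast-like against epiblast-like cells came to 0.0774 by the median over cells. Ratios that were under 2-fold or not measured turned sign, with 0.1 or more on both sides, in 7 settings for GSC and 7 for ISL1. For GSC in late and hatched cells (0.58) these were -0.57 without late G-11, -1.71 by the median, -1.43 by the mean of log2 values and -0.95 within letter H, and for outer middle blastocyst cells (-0.81) 4.26 without inner B-05, 2.27 by the median and 1.14 by the mean of log2 values. Counting any value above 0 as detection, the share of cells with a factor was 100% at the 16-cell stage, 100% in the late morula, 93.8% in the early, 94.1% in the middle and 88.9% in the hatched blastocyst; most of these added values rest on 12 reads or fewer. Of the alternatives for counts and shares 213 stayed within the limits set for a like value and 28 moved past them, and of those for single ratios 1736 stayed, 77 moved and 3 turned sign. No paired analysis was possible because the results come from no test and the cell numbers name no shared embryo.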
